A study of Rattus norvegicus with 8 samples.

Results

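Extracellular vesicles from human umbilical cord mesenchymal stem cells were given to smoke-exposed rats, and their lung RNA was compared with that of smoke-exposed rats that received no treatment. The comparison uses 4 of the 8 arrays of the series, chosen by the titles of the samples: CS-HUCMSC-EV 1 and 2 (the EV arrays) against CS 1 and CS 2 (the smoke arrays). All rats were male, and all 4 samples come from lungs that had cigarette smoke for 12 weeks in a smoking chamber. The EV group then received, in week 13 and by delivery into the trachea, the vesicles isolated from 2500000 human umbilical cord cells. The other 4 arrays serve for orientation: 2 of rats that breathed normal air (naive) and 2 of smoke-exposed rats given 2500000 of the cells themselves (MSC). Strain, age and the interval between treatment and sampling are not given in the sources used here. The smoke group is not described as having received a sham delivery into the trachea. Nothing in the labels says that the 2 samples of a group came from separate animals. The spread behind each p-value is therefore that between samples and may be technical.

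Extracellular vesicles are small membrane-bound particles that cells release and that carry proteins, lipids and RNA to other cells. In the lung, cigarette smoke is known for inflammation driven in part by NF-kB, a family of transcription factors held in the cytoplasm by inhibitor proteins until a signal releases them. It is also known for oxidative stress, for an imbalance of proteases and their inhibitors, and for loss of alveolar walls and of the capillaries in them.

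RNA from 30 mg of lung was copied into Cy3-labelled cDNA from 200 ng of RNA and hybridised to 1-colour rat arrays, so each value is a probe's brightness. The smoke arrays were brighter than the others: their 75th percentile of signal was 3312 and 2725, against 778 and 494 for EV, 581 and 373 for naive and 250 and 264 for MSC. The smoke arrays' geometric mean was 4.84 times that of the EV arrays, while the E1A spike-in RNAs, which the array kit adds in known amounts, stood at 0.875 times their EV signal. A level below is a log2 signal minus the 75th percentile of its own array, and the difference with scaling to the E1A spike-ins, the E1A scale, is given where the direction depends on it. Over 26152 features (a gene, or a probe with no gene symbol) the median difference, EV minus smoke, was 0.52 on the percentile scale and -1.94 on the E1A scale. Replicates correlated at 0.968 (EV) and 0.967 (smoke) across probes, and 48.2% to 71.4% of the probes were well above background on an array. On the slide a group occupies a single column, and group and column cannot be told apart.

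Most of the changes went up on the percentile scale. At an adjusted p under 0.05 (limma, Benjamini-Hochberg over all features), 10086 features differed between the EV and smoke arrays, or 38.6% of those tested. Of all features, 28.6% were higher after vesicles (7472) and 10% were lower (2614). On the E1A scale 0.772% were higher (202) and 73.3% were lower (19172). Each of the 2614 features lower on the percentile scale was also lower on the E1A scale. That scale lowers every difference by the same amount, and lower was the common direction there. Of the 7472 higher features, 202 were higher on the E1A scale too, 49 of them with a gene symbol. Which array was left out mattered: 1815 features were called without smoke array 1, 2010 without EV array 2, 5474 without EV array 1 and 7001 without smoke array 2. In all 8 fits that left out 1 array, 1232 higher and 354 lower features kept their call. No called feature changed sign in any of those fits. Leaving out a naive or MSC array cannot alter the EV minus smoke difference, and a call already favours groups that lie apart, so this is no further check.

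**Figure D1:**
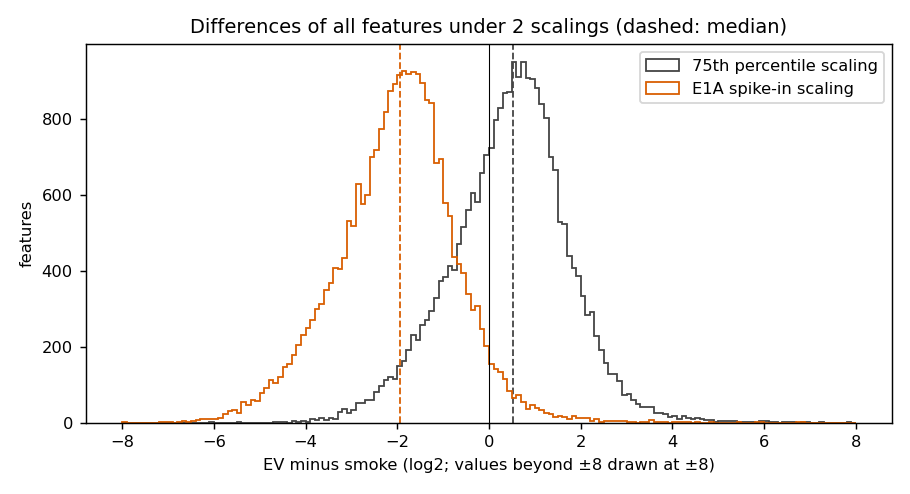
Number of features (y axis) by their difference, EV minus smoke, in log2 units (x axis), with scaling to each array's 75th percentile (grey) and to the E1A spike-in probes (orange). Dashed lines mark the medians, 0.52 and -1.94: the scaling moves nearly the whole distribution from above 0 to below it.

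Among genes with a symbol that were seen on all 4 arrays, RT1-CE5, Arid3a and Ephb2 led the increases that held on both scales. RT1-CE5, a rat class I antigen-presentation gene, stood at -6.09 and -5.94 on the smoke arrays and 3.16 and 3.31 on the EV arrays. Its difference was 9.25 (SE 0.31, adjusted p = 0.000114) and 6.78 on the E1A scale. No other gene with a symbol that met the criteria rose as much, and the EV values lay at the naive values of 3.44 and 2.75. Arid3a, a DNA-binding factor of B cell and blood development, stood at -1.05 and 0.59 on the smoke arrays and 5.52 and 6.22 on the EV arrays, a difference of 6.10 (SE 0.57, adjusted p = 0.00324). Ephb2, a receptor tyrosine kinase of cell-to-cell contact signalling, stood at -6.80 and -6.09 on the smoke arrays and -1.47 and -0.62 on the EV arrays, a difference of 5.40 (SE 0.40, adjusted p = 0.00278). Vangl1, a planar cell polarity protein, stood at -5.97 and -5.19 on the smoke arrays and -0.90 and 0.091 on the EV arrays, a difference of 5.18 (SE 0.42, adjusted p = 0.00278), though its 2 kept probes gave differences of 0.27 and 5.18. Igfbp5, a secreted binding protein of insulin-like growth factors, stood at -5.14 and -4.52 on the smoke arrays and -0.87 and -0.25 on the EV arrays, a difference of 4.27 (SE 0.35, adjusted p = 0.00278). The criteria required that the EV and smoke arrays did not overlap. The other 5 of the 10 leading increases were Zfp507, Ly49s5, Hs3st3b1, Ccdc25 and H2ap, with differences from 3.99 to 5.34; the 2 kept probes of Zfp507 gave 1.79 and 5.34. All 10 kept their call in every fit that left out 1 array. In all 10, both MSC arrays stood above both EV arrays and the smoke arrays stood lowest, the reverse of the order of brightness among these groups; the part of brightness in the differences was not tested.

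**Figure D2:**
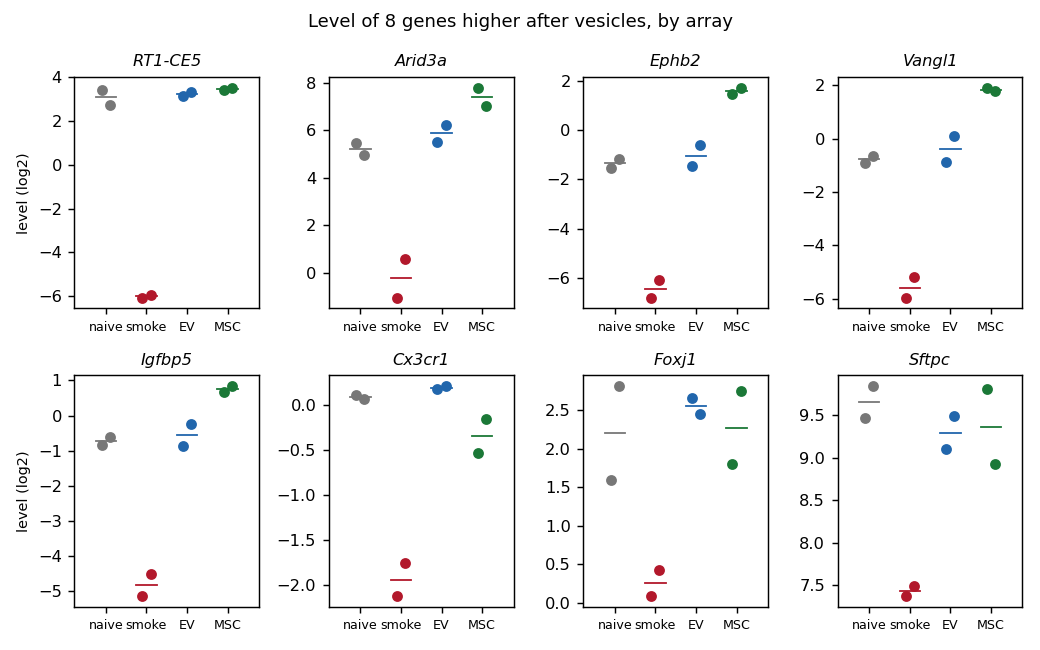
Level (y axis, log2 signal relative to the array's 75th percentile) of 8 genes that were higher after vesicles, in each array of the naive (grey), smoke (red), EV (blue) and MSC (green) groups; dots are arrays and bars are group means. Both EV arrays lie above both smoke arrays in every panel; RT1-CE5, Arid3a, Ephb2, Vangl1 and Igfbp5 were also higher on the E1A scale, whereas Cx3cr1, Foxj1 and Sftpc lay at -0.34, -0.17 and -0.61 there.

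A further 313 features were seen on both EV arrays and on neither smoke array, and the 4 genes with the largest bounds on their increase are given here. Siah3, a member of the seven-in-absentia family, stood at -10.05 and -9.05 on the smoke arrays and -0.99 and 0.60 on the EV arrays, and it was not well above background on any naive, smoke or MSC array. On the percentile scale the EV signal was at least 195-fold higher than the smoke background. The bounds given here are all on that scale. The E1A scale lowers every difference by the same amount, so bounds on increases are smaller there. C4h12orf71 stood at -10.20 and -8.37 on the smoke arrays and -3.20 and 0.41 on the EV arrays, at least 84.5-fold higher, and its 2 kept probes gave differences of 1.73 and 7.89. Zfp352, a zinc finger gene, stood at -5.77 and 1.02 on the EV arrays, so its bound of 42.9-fold rests on EV array 2. It was not called after quantile or cyclic loess normalization, with no filter on dim probes or in the fit of the 2 groups alone. Cyp4a2, a fatty acid hydroxylase, was at least 46.7-fold higher, and unlike the other genes it was also seen on the naive arrays, at -2.38 and -2.15. Across the array 32 probes were well above background on both EV arrays and on no array of any other group, against 828 for smoke, 19 for naive and 13 for MSC.

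Among genes seen on all 4 arrays, the leading decreases included Eng, Fgg and Pltp. The E1A scale lowers every difference by the same amount, so a decrease on the percentile scale is always a larger one there. Endoglin (Eng), an endothelial co-receptor for TGF-beta and BMP ligands, stood at 0.79 and -0.31 on the smoke arrays and -4.21 and -4.47 on the EV arrays. It fell by 4.58 (SE 0.46, adjusted p = 0.00324), which is 23.8-fold, and this was the largest decrease among the genes that met the criteria. Fgg, the gamma chain of fibrinogen, stood at 0.97 and -0.29 on the smoke arrays and -4.22 and -3.68 on the EV arrays, a difference of -4.29 (SE 0.82, adjusted p = 0.00808). Pltp, the phospholipid transfer protein, stood at 1.44 and 0.34 on the smoke arrays and -3.11 and -2.64 on the EV arrays, a difference of -3.77 (SE 0.42, adjusted p = 0.00370). RT1-O1, an MHC gene, stood at 0.53 and 0.67 on the smoke arrays and -3.81 and -3.43 on the EV arrays, a difference of -4.21 (SE 1.33, adjusted p = 0.0404), but the naive values of -3.33 and -0.43 and the MSC values of 0.27 and -3.88 each span most of that range. Grina, Eci1, Cdc42ep1, Zfp281, Sertad1 and Tmem252 completed the 10 leading decreases, with differences from -4.46 to -3.60. Of these 10 calls, 6 remained without smoke array 1, 9 without smoke array 2, 9 without EV array 1 and 8 without EV array 2. Of the 1174 features seen on both smoke arrays and neither EV array, the genes with the largest bounds were these. The splicing factor Plrg1 was at least 31.6-fold lower, and Rnase3, an eosinophil ribonuclease, at least 16.1-fold lower. Tmem39a was at least 9.18-fold lower and Srpx2, a secreted protein of vessel growth, at least 8.98-fold lower. With another background correction (normexp) neither Tmem39a nor Srpx2 was called.

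**Figure D3:**
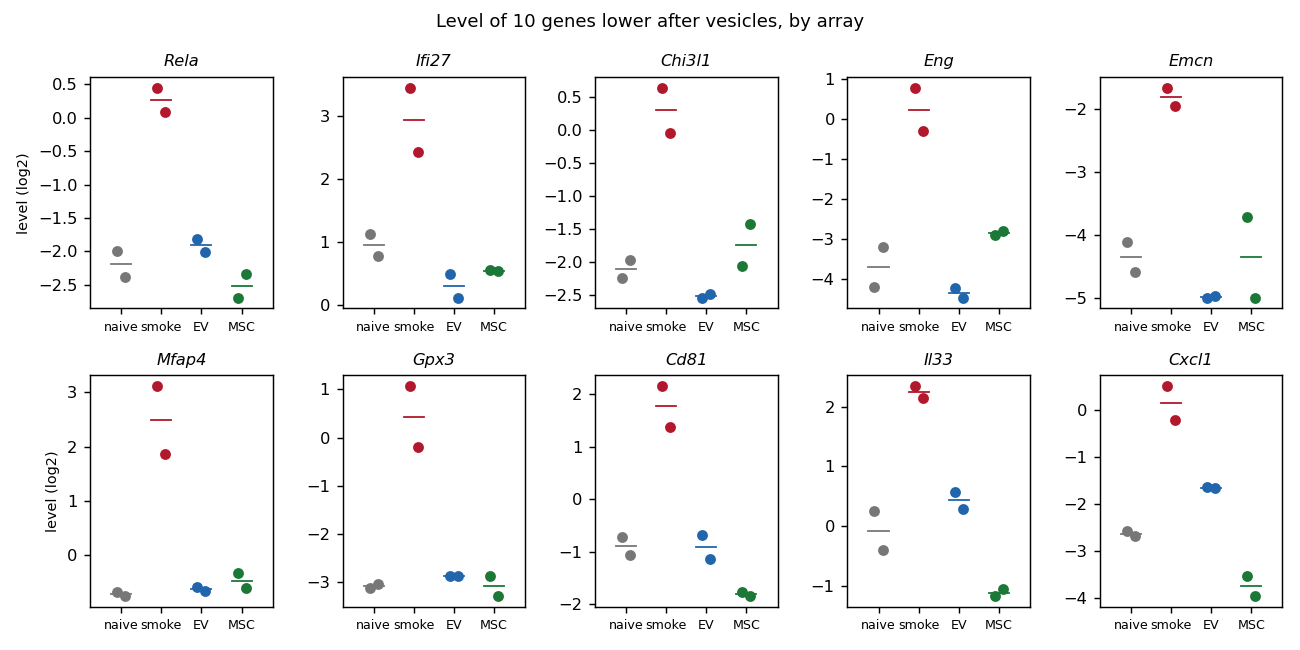
Level (y axis, log2 signal relative to the array's 75th percentile) of 10 genes that were lower after vesicles, in each array of the naive (grey), smoke (red), EV (blue) and MSC (green) groups; dots are arrays and bars are group means. In every panel both EV arrays lie below both smoke arrays, which a call favours and which held in 25.5% of all features. The Rela values are 0.45 and 0.09 on smoke against -1.81 and -2.01 on EV.

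The NF-kB subunits Rela, Nfkb1 and Nfkb2 were lower after vesicles. Rela, the p65 subunit that activates transcription, stood at 0.45 and 0.088 on the smoke arrays and -1.81 and -2.01 on the EV arrays. Its difference was -2.18 (SE 0.31, adjusted p = 0.00457), or 4.53-fold lower, and the call held in every fit that left out 1 array. The EV values lay close to the naive values of -2.0 and -2.38. Nfkb1, the precursor of p50, stood at -0.42 and -0.68 on the smoke arrays and -2.28 and -2.82 on the EV arrays, a difference of -2.0 (SE 0.63, adjusted p = 0.0396), and its other kept probe gave -0.66. Nfkb2, the precursor of p52, stood at -0.89 and -1.60 on the smoke arrays and -2.71 and -3.0 on the EV arrays, a difference of -1.61 (SE 0.48, adjusted p = 0.0339). The cytoplasmic inhibitor Nfkbib and the adaptor Traf2 were lower by -1.28 (SE 0.34, adjusted p = 0.0235) and -2.09 (SE 0.64, adjusted p = 0.0365). Nfkbia, the inhibitor that NF-kB itself induces, stood at 3.36 and 3.72 on the smoke arrays and 4.28 and 3.83 on the EV arrays and did not pass the test (difference 0.51, adjusted p = 0.328). Of 16 measured NF-kB pathway genes 5 were lower and 0 higher by the limma test (5 and 1 at an unadjusted p under 0.05), where 10% of all features were lower and 28.6% higher, the shares to set beside each list count that follows. The median difference was -0.17, beside 0.52 for all features. Of the 5 calls, 1 remained without smoke array 1 or 2, 2 without EV array 1, 1 without EV array 2, 3 without naive array 1 or 2 and 1 with no filter on dim probes. The kinases Ikbkb and Chuk, Ikbkg, Irak1, Irak4, Traf6 and Myd88, which carry the signal to NF-kB, did not pass the test, and their differences ran from -0.24 (Traf6) to 0.92 (Myd88).

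Among the 9 protein kinase C genes, 1 passed the test. Prkca, a calcium-dependent isoform, stood at -0.14 and 0.33 on the smoke arrays and 1.07 and 1.19 on the EV arrays, a difference of 1.03 (SE 0.33, adjusted p = 0.0428) that turned to -1.43 on the E1A scale and was not called without any 1 of the 4 smoke and EV arrays, after quantile or cyclic loess normalization, with the replicate block or with no filter on dim probes. Prkcz, the atypical zeta isoform, stood at -0.88 and -0.75 on the smoke arrays and -0.48 and -0.64 on the EV arrays. Its difference of 0.26 (adjusted p = 0.476) did not pass, and its other kept probe gave -1.73. The median of the list was 0.26.

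The cytokines that fell included alarmins and a neutrophil chemoattractant. Il33, an epithelial alarmin, stood at 2.35 and 2.15 on the smoke arrays and 0.58 and 0.29 on the EV arrays, a difference of -1.82 (SE 0.32, adjusted p = 0.00658). Il1a, released by injured epithelium, stood at 0.51 and -1.36 on the smoke arrays and -3.06 and -2.86 on the EV arrays, a difference of -2.54 (SE 0.55, adjusted p = 0.0122). Cxcl1, a chemoattractant for neutrophils, stood at 0.52 and -0.21 on the smoke arrays and -1.64 and -1.66 on the EV arrays, a difference of -1.81 (SE 0.33, adjusted p = 0.00758). The EV values of Il33 and Cxcl1 lay above the MSC values of -1.18 and -1.06 and -3.53 and -3.97. Cxcl10, a T cell chemoattractant induced by interferon, and Csf1, the growth factor of macrophages, differed by -2.18 (SE 0.46, adjusted p = 0.0112) and -1.54 (SE 0.46, adjusted p = 0.0343); Cxcl10 was well above background on 1 of the 2 EV arrays and lay at 0.065 with normexp, another background correction, and another probe of Csf1 gave 0.68. Ccl22, a chemoattractant for regulatory T cells, stood at -0.18 and 0.31 on the smoke arrays and 2.12 and 2.96 on the EV arrays, a difference of 2.48 (SE 0.41, adjusted p = 0.00581) on the percentile scale and 0.012 on the E1A scale. Lif differed by 1.02 (SE 0.32, adjusted p = 0.0402), and by -1.45 on the E1A scale. Of 24 measured cytokines and chemokines 5 were lower and 2 higher, with a median of -0.61. Of these 7 calls, 0 remained without smoke array 1, 6 without smoke array 2, 4 without EV array 1 and 1 without EV array 2. Tnf stood at -1.54 and -1.69 on the smoke arrays and -1.92 and -1.72 on the EV arrays, a difference of -0.21 (adjusted p = 0.697), and Il1b at -0.033 and -1.11 on the smoke arrays and 0.13 and 0.041 on the EV arrays, a difference of 0.66 (adjusted p = 0.243). Ccl2, a chemoattractant for monocytes, differed by -1.18 (adjusted p = 0.190), and Il10 was not measured.

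Among receptors for these signals the shares called lay near those of all features. Cx3cr1, the fractalkine receptor of patrolling monocytes, stood at -2.12 and -1.75 on the smoke arrays and 0.17 and 0.21 on the EV arrays, a difference of 2.13 (SE 0.29, adjusted p = 0.00444), and -0.34 on the E1A scale. It kept its percentile-scale call in every fit that left out 1 array. Il6st, Il18r1, Tnfrsf1a and Tnfrsf1b, which take up the signals of the interleukin-6 family, interleukin-18 and TNF, differed by 1.03 to 1.41, and by -1.44 to -1.06 on the E1A scale. Cxcr4, the receptor of Cxcl12, stood at 0.20 and -1.10 on the smoke arrays and -2.45 and -2.40 on the EV arrays, a difference of -1.97 (SE 0.46, adjusted p = 0.0154), and Ackr3, which scavenges the same ligand, differed by -1.28 (SE 0.30, adjusted p = 0.0159). Of 24 measured receptors 6 were higher (25.0%) and 2 lower (8.33%), against 28.6% and 10% of all features, with a median of 0.06. Of the 8 calls, 2 remained without smoke array 1, 6 without smoke array 2, 3 without EV array 1, 2 without EV array 2, 4 after quantile normalization, 4 after cyclic loess and 4 with no filter on dim probes.

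Interferon-induced genes split. Of 22 measured, 7 were lower (Ifitm3, Usp18, Ifi27, Oas1a, Isg15, Mx1 and Irf7) and 4 higher on the percentile scale (Mx2, Bst2, Oas2 and Stat2), with a median of -0.64. The promoters of 4 lower genes and of Bst2 that matched the RefSeq promoter table of assembly GRCr8 are printed to show the motif searched in them, GAAA followed after any 2 bases by GAAA, on either strand, the core of the element bound by interferon regulatory factors. Each runs from 250 bases before to 50 after the start of the gene, 5′ to 3′ on the gene's strand, with the motif, or its reverse complement (TTTC, any 2 bases, TTTC), in capitals. Where matches overlap the capitals run together.
Ifi27 (chr6:128355062-128355361, plus strand): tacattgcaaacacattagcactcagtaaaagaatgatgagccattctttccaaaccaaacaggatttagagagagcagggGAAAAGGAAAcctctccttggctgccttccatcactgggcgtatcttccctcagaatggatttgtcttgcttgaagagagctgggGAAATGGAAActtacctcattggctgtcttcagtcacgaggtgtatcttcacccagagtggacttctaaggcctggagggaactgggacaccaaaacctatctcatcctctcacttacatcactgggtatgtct
Oas1a (chr12:41330216-41330515, plus strand): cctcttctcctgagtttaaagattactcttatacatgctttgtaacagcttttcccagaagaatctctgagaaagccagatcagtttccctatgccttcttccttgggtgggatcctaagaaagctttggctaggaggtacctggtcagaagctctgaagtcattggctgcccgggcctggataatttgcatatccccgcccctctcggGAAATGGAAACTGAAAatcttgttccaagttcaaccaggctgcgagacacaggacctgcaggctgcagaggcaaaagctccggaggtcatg
Irf7 (chr1:205799974-205800273, minus strand): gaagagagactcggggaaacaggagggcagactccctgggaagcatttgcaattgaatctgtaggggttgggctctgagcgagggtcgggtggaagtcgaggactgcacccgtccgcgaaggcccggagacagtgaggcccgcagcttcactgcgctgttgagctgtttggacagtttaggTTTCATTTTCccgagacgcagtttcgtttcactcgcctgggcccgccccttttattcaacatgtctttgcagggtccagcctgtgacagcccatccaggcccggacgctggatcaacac
Ifitm3 (chr1:205541709-205542008, minus strand): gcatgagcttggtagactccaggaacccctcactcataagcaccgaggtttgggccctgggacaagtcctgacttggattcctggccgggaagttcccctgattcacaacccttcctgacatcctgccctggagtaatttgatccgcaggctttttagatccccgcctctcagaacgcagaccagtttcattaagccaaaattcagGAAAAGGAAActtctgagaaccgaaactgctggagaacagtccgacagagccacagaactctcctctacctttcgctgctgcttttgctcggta
Bst2 (chr16:18254918-18255217, minus strand): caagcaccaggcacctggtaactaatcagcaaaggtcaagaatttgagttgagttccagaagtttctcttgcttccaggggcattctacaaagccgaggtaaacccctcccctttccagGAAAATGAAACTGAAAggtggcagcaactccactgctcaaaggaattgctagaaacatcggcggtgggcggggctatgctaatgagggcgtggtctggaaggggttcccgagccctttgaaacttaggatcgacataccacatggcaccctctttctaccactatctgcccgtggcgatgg
The motif was found in 4 of 5 matched lower genes, in 1 of 2 matched higher genes and in 6 of 8 that were not called; Mx1 and Stat2 had none in this window. Of all 33469 promoters in the table, 3.92% held it.

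Ifi27, an interferon-induced mitochondrial protein, stood at 3.45 and 2.43 on the smoke arrays and 0.50 and 0.12 on the EV arrays, a difference of -2.63 (SE 0.39, adjusted p = 0.00486), and its call held in every fit that left out 1 array. Ifitm3, which blocks entry of viruses, stood at 2.12 and 1.12 on the smoke arrays and -1.73 and -2.01 on the EV arrays, a difference of -3.49 (SE 0.65, adjusted p = 0.00758). Oas1a, a sensor of double-stranded RNA, stood at -0.35 and -1.42 on the smoke arrays and -3.10 and -3.43 on the EV arrays, a difference of -2.38 (SE 0.41, adjusted p = 0.00638). In these 3 genes smoke array 1 was the higher of the smoke arrays. Usp18, Isg15, Mx1 and Irf7 differed by -3.24, -2.21, -1.62 and -1.56. Bst2, which tethers budding viruses, stood at 3.70 and 4.27 on the smoke arrays and 5.44 and 5.51 on the EV arrays, a difference of 1.49 (SE 0.47, adjusted p = 0.0394) that turned to -0.98 on the E1A scale. Mx2, Oas2 and Stat2 differed by 1.67, 1.23 and 1.08, and by -0.80, -1.24 and -1.38 on the E1A scale. Of the 11 calls, 3 remained without smoke array 1, 8 without smoke array 2, 5 without EV array 1, 1 without EV array 2, 10 without naive array 1 or 2 and 7 with no filter on dim probes.

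Several genes of cytotoxic lymphocytes were lower. Gzmb, a protease of killer cell granules, stood at 0.028 and -1.37 on the smoke arrays and -2.90 and -3.69 on the EV arrays, a difference of -2.63 (SE 0.51, adjusted p = 0.00852). Prf1, the pore protein of the same granules, stood at 1.16 and -0.18 on the smoke arrays and -1.35 and -1.71 on the EV arrays, a difference of -2.02 (SE 0.49, adjusted p = 0.0176). Smoke array 1 lay above smoke array 2 in both. Gzma, Gzmk and Klrk1 differed by -1.48, -1.75 and -2.0. Ctsw, not well above background on either EV array, was at least 2.40-fold lower. With normexp Klrk1 and Ctsw turned to 0.48 and 0.85. Tbx21, the transcription factor of type 1 immunity, went the other way at 3.46 and 3.79 on the smoke arrays and 5.42 and 5.81 on the EV arrays, a difference of 1.99 (SE 0.37, adjusted p = 0.00767), and -0.48 on the E1A scale. Of 14 measured markers 6 were lower and 1 higher, with a median of -1.01. On all 4 smoke and EV arrays 12 of the 14 were well above background. With only such features tested, 5 of the calls remained and the others were not tested. Among the 7 calls, 0 remained without smoke array 1, 6 without smoke array 2, 3 without EV array 1, 0 without EV array 2, 4 without naive array 1 or 2, 6 without MSC array 1 or 2 and 3 with no filter on dim probes. In whole lung, fewer cells of a type and less RNA per cell cannot be told apart, here and in the cell type lists that follow.

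Macrophage markers moved in both directions. Chi3l1, a secreted chitinase-like protein, stood at 0.63 and -0.051 on the smoke arrays and -2.54 and -2.48 on the EV arrays, a difference of -2.80 (SE 0.36, adjusted p = 0.00427), or 6.98-fold lower, and this call held in every fit that left out 1 array. C1qc, a subunit of complement C1q, stood at -1.08 and -2.08 on the smoke arrays and -4.58 and -4.63 on the EV arrays, a difference of -3.02 (SE 0.59, adjusted p = 0.00877), but its partners C1qa and C1qb differed by -0.14 and 0.01 and did not pass. Cd14, a co-receptor for bacterial lipopolysaccharide, stood at -0.26 and -0.96 on the smoke arrays and -3.53 and -3.86 on the EV arrays, a difference of -3.08 (SE 0.66, adjusted p = 0.0116). The mannose receptor Mrc1 and Adgre1 (F4/80) differed by -1.74 and -2.05, but neither was called with normexp. Higher on the percentile scale were Lyz2, Cd163 and Mertk, by 1.87, 1.41 and 1.34, which turned to -0.60, -1.06 and -1.13 on the E1A scale. The probes of Lyz2 disagreed (-1.65 and 1.87). Of 21 measured markers 5 were lower and 4 higher, with a median of 0.16. Among these 9 calls, 1 remained without smoke array 1, 8 without smoke array 2, 6 without EV array 1, 2 without EV array 2 and 8 without naive array 1 or 2.

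Among 53 further immune markers, of neutrophils, mast cells and eosinophils, T cells, B cells and class II antigen presentation, 8 were higher and 7 lower, with a median of -0.02. With only features well above background on all 4 smoke and EV arrays, 11 of these 15 calls remained, 3 of them in class II genes. The others were not tested there. Class II genes held 4 of the lower calls. The class II chains RT1-Da and RT1-Db1 differed by -2.11 and -1.40, RT1-DMb, which helps to load peptide, by -1.05, and RT1-DOa, not well above background on the EV arrays, was at least 1.82-fold lower. Cd80, a co-stimulator of T cells, was seen on neither smoke array. It was at least 12.6-fold higher on the EV arrays on the percentile scale, a bound that is smaller on the E1A scale. Cd8a, of cytotoxic T cells, differed by -2.81 (SE 0.83, adjusted p = 0.0336) but was not called with normexp. Cd3e and Cd247, chains of the T cell receptor complex, differed by 1.85 and 1.76 and by -0.61 and -0.71 on the E1A scale. Lcn2, an iron-binding protein of neutrophils and injured epithelium, stood at 2.86 and 2.57 on the smoke arrays and 1.44 and 1.12 on the EV arrays, a difference of -1.43 (SE 0.33, adjusted p = 0.0144); Fcer1a, of mast cells, was at least 1.86-fold lower, and at 1.19 with normexp. Padi4 and Pax5, of neutrophils and B cells, differed by 1.79 and 1.48, and by -0.68 and -0.99 on the E1A scale. Among the 15 calls, 4 remained without smoke array 1, 7 without smoke array 2, 6 without EV array 1, 1 without EV array 2, 12 without naive array 1 or 2 and 7 with no filter on dim probes.

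Some surfactant genes were higher on the percentile scale. Sftpc, the surfactant protein made only by alveolar type 2 cells, stood at 7.37 and 7.49 on the smoke arrays and 9.10 and 9.48 on the EV arrays, a difference of 1.86 (SE 0.37, adjusted p = 0.00901), and Sftpd at 6.05 and 6.25 on the smoke arrays and 7.43 and 7.65 on the EV arrays, a difference of 1.39 (SE 0.42, adjusted p = 0.0347). These turned to -0.61 and -1.08 on the E1A scale and lay at -0.00 and -0.03 after quantile normalization. Lpcat1, which makes the main surfactant lipid, was lower at -1.75 (SE 0.54, adjusted p = 0.0384) but was not called with normexp. Sftpb (0.94, adjusted p = 0.0691) and Sftpa1 (-1.16, adjusted p = 0.158) did not pass. Of 12 measured type 2 markers 2 were higher and 1 lower, with a median of 0.59. Of the 3 calls, 0 remained without smoke array 1, 1 without smoke array 2, 1 without EV array 1, 0 without EV array 2, 2 without MSC array 1 or 2, 1 after quantile normalization, 1 after cyclic loess and 1 with no filter on dim probes. Of 13 type 1 markers 0 passed the limma test, with 1 lower and 0 higher at an unadjusted p under 0.05; their median was 0.66, and Ager, the marker of the thin gas-exchange cells, stood at 6.53 and 6.73 on the smoke arrays and 7.35 and 7.23 on the EV arrays (adjusted p = 0.336). Among 20 airway markers 8 were higher and 0 lower by the limma test (10 and 0 at an unadjusted p under 0.05), with a median of 1.15. Foxj1, the master regulator of motile cilia, stood at 0.083 and 0.43 on the smoke arrays and 2.66 and 2.45 on the EV arrays, a difference of 2.30 (SE 0.48, adjusted p = 0.0110). Krt5, of basal cells, and Rsph1, of the ciliary axoneme, differed by 1.73 and 1.68. All 8 turned negative on the E1A scale. Of these 8 calls, 0 remained without smoke array 1, 3 without smoke array 2, 2 without EV array 1, 0 without EV array 2, 7 without naive array 1 or 2, 2 after quantile normalization, 2 after cyclic loess, 3 with no filter on dim probes and 5 with the replicate block. Scgb1a1, the secretory protein of club cells, stood at 5.91 and 5.95 on the smoke arrays and 6.44 and 6.62 on the EV arrays, a difference of 0.60 (adjusted p = 0.469).

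Several endothelial genes were lower, while Pecam1 was higher on the percentile scale. Beside Eng, Emcn, a capillary and venous sialomucin, stood at -1.66 and -1.95 on the smoke arrays and -4.99 and -4.98 on the EV arrays, a difference of -3.18 (SE 0.44, adjusted p = 0.00456). Icam2, an adhesion molecule of resting endothelium, stood at 0.60 and -0.67 on the smoke arrays and -3.12 and -2.72 on the EV arrays, a difference of -2.88 (SE 0.46, adjusted p = 0.00547). Eng, Emcn and Icam2 kept their calls in every fit that left out 1 array. Ramp2, part of the adrenomedullin receptor, Cldn5, a tight junction protein, and Tie1, a receptor of vessel stability, differed by -2.51, -2.04 and -1.97. Sox17, an arterial transcription factor, was not well above background on the EV arrays and at least 1.29-fold lower, but lay at 1.41 with normexp. Pecam1 (CD31) stood at 2.86 and 3.55 on the smoke arrays and 5.04 and 4.98 on the EV arrays, a difference of 1.81 (SE 0.40, adjusted p = 0.0133) that turned to -0.66 on the E1A scale. Of 24 measured markers 7 were lower and 1 higher, with a median of -0.04. Among the 8 calls, 3 remained without smoke array 1, 6 without smoke array 2, 6 without EV array 1, 4 without EV array 2 and 7 without MSC array 1 or 2. In the coagulation list, Procr, the endothelial receptor of protein C, was lower beside Fgg, by -2.65 (SE 0.49, adjusted p = 0.00749). The thrombin receptor F2r and the protease inhibitor Serpine2 were higher by 1.42 and 1.52, and at -1.05 and -0.95 on the E1A scale. The list held 15 measured genes, and its median was -0.13. Of its 4 calls, 0 remained without smoke array 1, 3 without smoke array 2, 3 without EV array 1, 1 without EV array 2, 3 without naive array 1 or 2, 2 after quantile normalization and 2 with no filter on dim probes.

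In the extracellular matrix list 6 of 19 measured genes were lower and 2 higher. Mfap4, a microfibril-associated protein of elastic fibres, stood at 3.11 and 1.87 on the smoke arrays and -0.58 and -0.66 on the EV arrays, a difference of -3.11 (SE 0.41, adjusted p = 0.00442), or 8.63-fold lower. Fbln5, which assembles elastin, stood at -1.32 and -2.79 on the smoke arrays and -5.28 and -4.81 on the EV arrays, a difference of -2.99 (SE 0.50, adjusted p = 0.00589). Mfap4 and Fbln5 kept their calls in every fit that left out 1 array. Loxl1, which cross-links elastin, and Fbn1, the core of microfibrils, differed by -3.08 and -3.14. Sparc, a collagen-binding matrix protein, differed by -2.08. Lum, another, was not well above background on the EV arrays and at least 1.76-fold lower, but lay at 0.91 with normexp. Col1a1, of type I collagen, stood at 0.83 and 1.59 on the smoke arrays and 2.73 and 2.55 on the EV arrays, a difference of 1.43 (SE 0.42, adjusted p = 0.0334), but another probe gave -0.84 and the E1A scale -1.04; Tnc differed by 1.46, with another probe at -0.29. The median of the list was 0.11. Among these 8 matrix calls, 2 remained without smoke array 1, 7 without smoke array 2, 6 without EV array 1, 3 without EV array 2 and 5 with no filter on dim probes.

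Proteases and their inhibitors moved in both directions. Ctsl, a lysosomal protease, stood at 2.44 and 2.27 on the smoke arrays and 1.08 and 0.75 on the EV arrays, a difference of -1.44 (SE 0.33, adjusted p = 0.0140). Adam17, which sheds TNF, stood at -1.49 and -1.79 on the smoke arrays and -2.93 and -2.84 on the EV arrays, a difference of -1.25 (SE 0.29, adjusted p = 0.0155). Adamts1, a matrix protease, and Timp1, an inhibitor of matrix metalloproteases, differed by -1.42 and -1.39. Mmp14 and Ctsb differed by 1.31 and 0.96, and by -1.15 and -1.51 on the E1A scale. Mmp12, the macrophage elastase, was not well above background on either EV array, and Mmp9 stood at -5.51 and -6.69 on the smoke arrays and -5.97 and -6.21 on the EV arrays (difference 0.01, adjusted p = 0.987). Of 17 measured genes 4 were lower and 2 higher, with a median of -0.69. Of these 6 calls, 0 remained without smoke array 1, 3 without smoke array 2, 1 without EV array 1, 0 without EV array 2 and 2 with no filter on dim probes.

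Antioxidant genes split evenly. Gpx3, the secreted glutathione peroxidase, stood at 1.07 and -0.20 on the smoke arrays and -2.89 and -2.88 on the EV arrays, a difference of -3.32 (SE 0.43, adjusted p = 0.00431), or 9.96-fold lower. Prdx1, a peroxiredoxin, stood at 1.21 and 0.35 on the smoke arrays and -1.28 and -1.25 on the EV arrays, a difference of -2.04 (SE 0.34, adjusted p = 0.00593). Cat, catalase, stood at -1.92 and -2.96 on the smoke arrays and -4.66 and -4.55 on the EV arrays, a difference of -2.17 (SE 0.43, adjusted p = 0.00929). Cat was not called with normexp. Gpx3 and Prdx1 kept their calls in every fit that left out 1 array. Txnrd1 differed by -2.03, with another probe at 0.33. Gpx2, Gsr, Gpx4 and Srxn1 differed by 1.14 to 1.51, and by -1.33 to -0.95 on the E1A scale; another probe of Gpx4 gave -1.75. Of 21 measured genes 4 were lower and 4 higher, with a median of -0.08. Among its 8 calls, 2 remained without smoke array 1, 4 without smoke array 2, 5 without EV array 1, 3 without EV array 2, 5 after quantile normalization, 5 after cyclic loess and 5 with no filter on dim probes. Hmox1, which degrades heme, stood at -1.02 and -0.48 on the smoke arrays and -0.60 and 0.49 on the EV arrays (adjusted p = 0.459), and Nqo1, a quinone reductase, at -1.26 and -2.07 on the smoke arrays and -2.81 and -2.50 on the EV arrays (adjusted p = 0.0758). Among 12 xenobiotic genes, Fmo1 and Cyp2e1, both oxidases, were lower by -2.64 and -2.39, and Ugt1a6 was higher by 1.26 (-1.21 on the E1A scale). Of these 3 calls, 0 remained without smoke array 1, 2 without smoke array 2, 2 without EV array 1, 1 without EV array 2 and 1 with no filter on dim probes. Cyp1a1, which smoke induces through the aryl hydrocarbon receptor, stood at -4.67 and -4.21 on the smoke arrays and -6.34 and -1.72 on the EV arrays, so the EV arrays lay on both sides of the smoke arrays.

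In the BMP and TGF-beta list 5 of 22 measured genes were lower and 2 higher. Of the ligands, Bmp6 stood at -1.96 and -2.76 on the smoke arrays and -4.92 and -5.35 on the EV arrays, a difference of -2.78 (SE 0.36, adjusted p = 0.00427), which held in every fit that left out 1 array, and Bmp4 differed by -1.28 (SE 0.34, adjusted p = 0.0240). Smad6, an inhibitor that BMP signals induce, stood at -0.47 and -1.17 on the smoke arrays and -3.15 and -2.99 on the EV arrays, a difference of -2.25 (SE 0.40, adjusted p = 0.00681). Ltbp4, which tethers latent TGF-beta to the matrix, and Ccn2, a matricellular TGF-beta target, differed by -1.37 and -1.32. Inhba and Smad9 were higher by 1.55 and 1.68, and at -0.92 and -0.79 on the E1A scale. Tgfb1 stood at -2.07 and -2.49 on the smoke arrays and -3.78 and -4.22 on the EV arrays, a difference of -1.71 (adjusted p = 0.0863) that did not pass. The median of the list was -0.13. Among these 7 pathway calls, 1 remained without smoke array 1, 3 without smoke array 2, 4 without EV array 1, 2 without EV array 2, 5 without naive array 1 or 2 and 2 with no filter on dim probes.

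Growth factors of lung repair showed no common direction. Fgf10, a mesenchymal factor for epithelial progenitors, stood at -8.54 and -6.77 on the smoke arrays and -4.59 and -4.45 on the EV arrays. Its difference was 3.14 (SE 0.56, adjusted p = 0.00689), and 0.67 on the E1A scale, where it was not called. It was well above background on 1 of the 2 smoke arrays. Hbegf, a ligand of the EGF receptor, stood at -2.24 and -2.97 on the smoke arrays and -4.58 and -4.49 on the EV arrays, a difference of -1.93 (SE 0.44, adjusted p = 0.0144). Ctnnb1, beta-catenin of Wnt signalling, stood at -0.85 and -1.49 on the smoke arrays and -2.81 and -2.55 on the EV arrays, a difference of -1.51 (SE 0.34, adjusted p = 0.0133). Fgfr1 and Igf1 differed by -1.07 and -0.97, but another probe of Igf1 gave 2.73. Neither Hbegf nor Fgfr1 was called with normexp. Egfr and Fgf1 were higher by 1.11 and 1.21, and at -1.36 and -1.26 on the E1A scale. Of 23 measured genes 4 were lower and 3 higher, with a median of -0.01. Of the 7 calls, 1 remained without smoke array 1, 4 without smoke array 2, 1 without EV array 1, 0 without EV array 2 and 3 with no filter on dim probes. Vegfa, the main endothelial growth factor, stood at 3.07 and 3.81 on the smoke arrays and 4.78 and 5.01 on the EV arrays (adjusted p = 0.0704), and Hgf at -4.12 and -3.64 on the smoke arrays and -3.90 and -3.04 on the EV arrays (adjusted p = 0.385).

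The rat genes for Cd81 and Cd9, tetraspanins that mark vesicle membranes, were lower. Cd81 stood at 2.16 and 1.38 on the smoke arrays and -0.69 and -1.15 on the EV arrays, a difference of -2.69 (SE 0.35, adjusted p = 0.00434), and Cd9 at 0.53 and -0.83 on the smoke arrays and -3.16 and -2.99 on the EV arrays, a difference of -2.93 (SE 0.50, adjusted p = 0.00612). Stam, which sorts cargo for multivesicular bodies, stood at -3.03 and -3.52 on the smoke arrays and -5.54 and -5.80 on the EV arrays, a difference of -2.40 (SE 0.34, adjusted p = 0.00457). All 3 kept their calls in every fit that left out 1 array. Stam was well above background on 1 of the 2 EV arrays and was not called with normexp. Tsg101, of the same sorting machinery, Flot2 and Rab31 differed by 1.29, 1.27 and 1.44, and by -1.18, -1.19 and -1.03 on the E1A scale. Of 22 measured genes 3 were lower and 3 higher, with a median of -0.16. Of these 6 calls, 3 remained without smoke array 1, 5 without smoke array 2, 4 without EV array 1 and 3 without EV array 2.

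**Figure D4:**
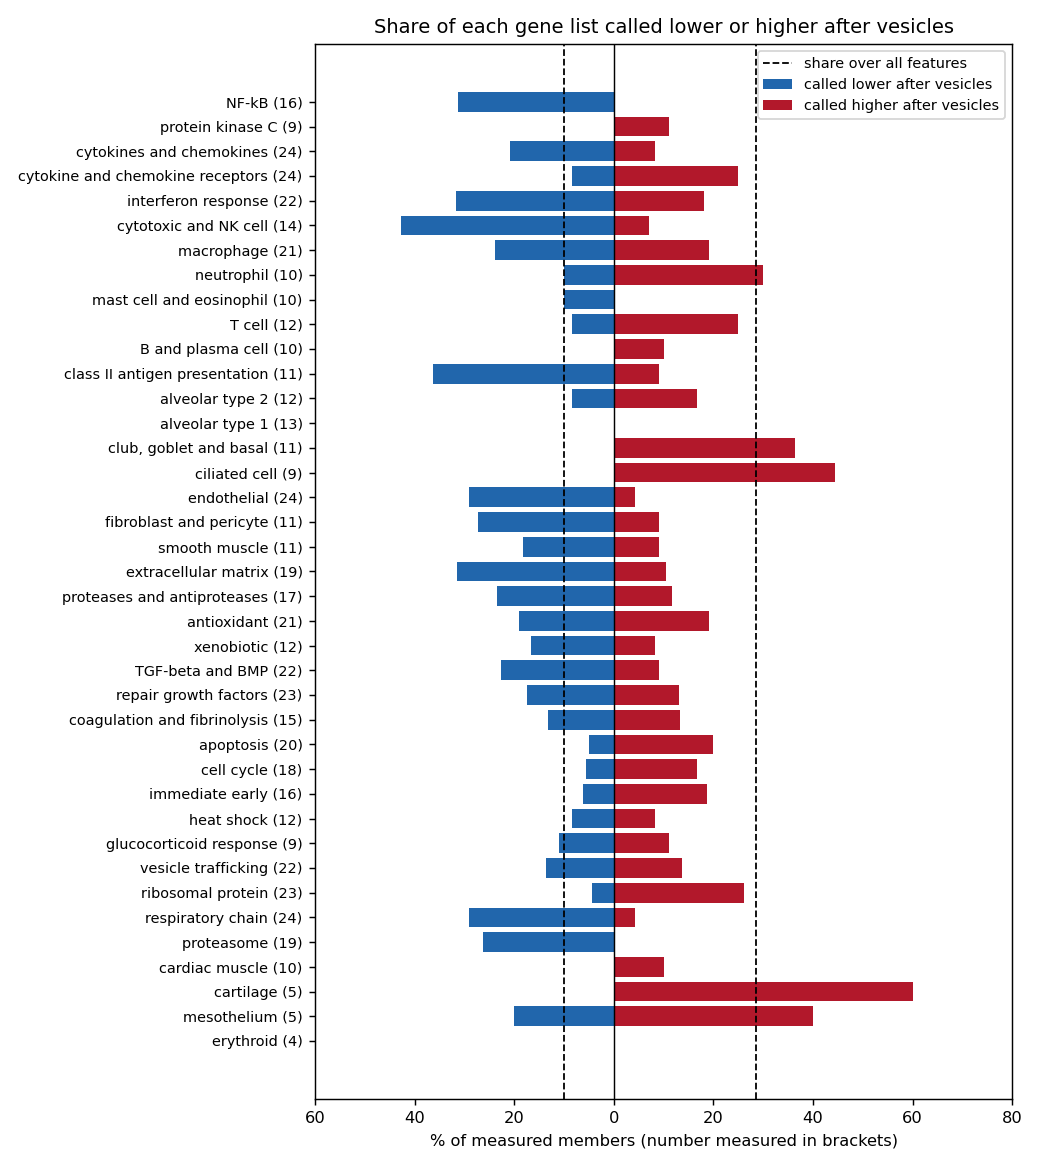
Percent of the measured members of each gene list (x axis) called lower (blue, left of 0) or higher (red, right of 0) after vesicles on the percentile scale, with the number measured in brackets. Dashed lines mark the shares over all features, 10% lower and 28.6% higher. Of the NF-kB genes 5 of 16 and of the cytotoxic genes 6 of 14 are called lower, and the airway lists are called higher only. The counts include members not well above background on all 4 smoke and EV arrays, such as 2 of the 14 cytotoxic genes.

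Stromal markers gave 5 lower and 2 higher calls among 22 measured, with a median of 0.42. Inmt, of lung fibroblasts, stood at -0.97 and -1.66 on the smoke arrays and -4.28 and -4.50 on the EV arrays, a difference of -3.08 (SE 0.47, adjusted p = 0.00512), and Rgs5, of pericytes, at -1.65 and -1.89 on the smoke arrays and -3.77 and -3.95 on the EV arrays, a difference of -2.09 (SE 0.29, adjusted p = 0.00457). Both held in every fit that left out 1 array. Kcnj8, Tagln and Cnn1 differed by -1.33, -1.27 and -1.39 (Cnn1 at 0.23 with normexp), and Myh11 and Thy1 by 1.5 and 1.67, the last pair at -0.97 and -0.80 on the E1A scale. Of the 7 stromal calls, 2 remained without smoke array 1, 4 without smoke array 2, 3 without EV array 1, 2 without EV array 2 and 3 with no filter on dim probes.

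Among 75 genes of apoptosis, the cell cycle, immediate early, heat shock and glucocorticoid responses, 12 were higher and 5 lower, with a median of 0.23. The lower genes were Dusp1, a phosphatase that ends MAP kinase signals (-3.41 (SE 0.77, adjusted p = 0.0136)), Casp8, an initiator caspase (-2.54 (SE 0.45, adjusted p = 0.00660)), Sgk1, a kinase that glucocorticoids induce (-2.02 (SE 0.35, adjusted p = 0.00645)), Hspb1 (-1.44) and Pcna (-1.04). Bcl2l1, an inhibitor of apoptosis, was higher at 3.28 (SE 0.60, adjusted p = 0.00738), and at 0.81 on the E1A scale, where it was not called. Apaf1, Hsp90ab1 and Mcm4 differed by 1.94, 2.12 and 1.2, and turned negative on the E1A scale. Of these 17 calls, 0 remained without smoke array 1, 9 without smoke array 2, 6 without EV array 1, 1 without EV array 2, 16 without naive array 1 or 2, 10 after quantile normalization, 9 after cyclic loess and 8 with no filter on dim probes. Among 23 ribosomal protein genes 6 were higher and 1 lower, with a median of 0.30. Among 24 genes of the respiratory chain 1 was higher and 7 lower, with a median of -0.38, and among 19 of the proteasome 0 were higher and 5 lower by the limma test, with a median of -0.43. Atp5f1b, of the ATP synthase, stood at 0.63 and -0.60 on the smoke arrays and -2.55 and -2.24 on the EV arrays, a difference of -2.41 (SE 0.48, adjusted p = 0.00928), and Psmb1, of the proteasome core, at 0.52 and -0.40 on the smoke arrays and -2.56 and -2.72 on the EV arrays, a difference of -2.70 (SE 0.37, adjusted p = 0.00448), which held in every fit that left out 1 array. Rplp1, of the ribosomal stalk, differed by 1.53 (SE 0.27, adjusted p = 0.00670), and by -0.94 on the E1A scale. Of these 20 calls, 1 remained without smoke array 1, 12 without smoke array 2, 7 without EV array 1, 1 without EV array 2, 19 without naive array 1 or 2, 13 after quantile normalization, 13 after cyclic loess and 11 with no filter on dim probes.

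Markers of heart muscle stood high on 1 EV array. Myh6, the atrial myosin heavy chain, stood at -5.69 and -8.05 on the smoke arrays and 3.14 and -4.95 on the EV arrays, and Myl7, an atrial myosin light chain, at -5.89 and -5.52 on the smoke arrays and 3.07 and -4.33 on the EV arrays. Tnnt2, a cardiac troponin, stood at -2.65 and -2.67 on the smoke arrays and 2.36 and -1.60 on the EV arrays. Tnni3, another, stood at -3.44 and -3.0 on the smoke arrays and 1.13 and -0.97 on the EV arrays. In all 4 genes EV array 1 lay above EV array 2 and above both smoke arrays. In 9 of the 10 measured cardiac markers EV array 2 lay above both smoke arrays too; both EV arrays did so in 56.8% of all features, and both lay below both smoke arrays in 25.5%. Over the 10 measured cardiac markers the median level was 1.36 on EV array 1 and -3.63 on EV array 2, against -5.15 and -4.71 on the smoke arrays and -4.0 and -2.68 on the naive arrays, and it was 2.16 on MSC array 2. Tnni3 was the only cardiac marker called (3.30 (SE 0.99, adjusted p = 0.0342)), and it was not called without any 1 of the smoke and EV arrays. Across the cardiac, cartilage, mesothelial and red cell lists 24 genes were measured, 6 higher and 1 lower, with a median of 1.59; the lower gene was Krt19 (-1.89 (SE 0.40, adjusted p = 0.0115)). Of these 7 calls, 0 remained without smoke array 1, 4 without smoke array 2, 3 without EV array 1, 1 without EV array 2, 6 without naive array 1 or 2, 1 after quantile normalization, 4 after cyclic loess and 4 with no filter on dim probes. The part of such tissue in the other differences was not tested.

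**Figure D5:**
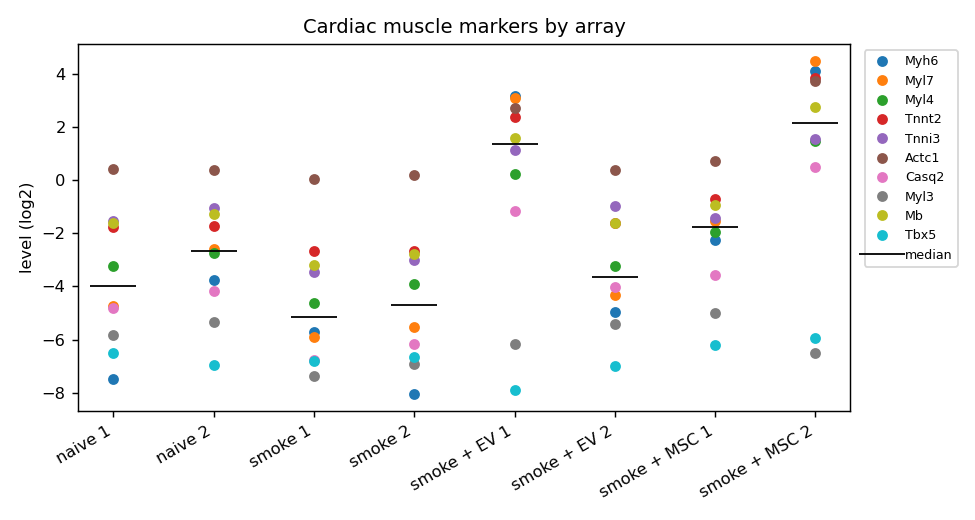
Level (y axis, log2 signal relative to the array's 75th percentile) of the 10 measured cardiac muscle markers on each of the 8 arrays (x axis); dots are genes and black bars are medians. EV array 1 and MSC array 2 stand high, with medians of 1.36 and 2.16, and EV array 2 stands at -3.63.

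Against naive lung, the EV arrays differed in no feature at this threshold. The limma test called 0 of 26152 (0.00%), 1045 had an unadjusted p under 0.05, and the alternatives gave 0 to 41 calls. For Rela the EV mean lay 0.28 above the naive mean, for Cxcl1 0.98 above and for Il33 0.51 above; for Ifi27 it lay 0.64 below and for Chi3l1 0.41 below. These comparisons share the EV arrays with the comparison to smoke, and a p that misses the threshold does not show that EV and naive lung were alike.

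Between the treatments, 1327 features (5.07%) differed between the EV and MSC arrays, 378 higher and 949 lower after vesicles. This split turned with the scaling: it was 10488 higher and 3 lower on the E1A scale, 1095 and 831 after quantile normalization, and 709 and 511 after cyclic loess. Cxcl1, Il33 and Lcn2, all lower than smoke after vesicles, stood higher after vesicles than after cells, by 2.10, 1.55 and 2.09. Siah3, seen on the EV arrays only, was at least 53.4-fold higher than after cells, though its difference with normexp was 1.91 (log2). Ephb2, Vangl1, Tbx21 and Thy1 stood lower after vesicles than after cells, by -2.64, -2.24, -1.66 and -1.70, and at -1.10, -0.70, -0.12 and -0.16 on the E1A scale. None of these calls was made without naive array 1 or 2, smoke array 1 or 2, or EV array 2, when 0 features passed, nor in the fit of the 2 groups alone.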

How the data were processed

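Each of the 8 arrays (male rat lung, 4 groups of 2) gave a file of Agilent Feature Extraction 10.7.3.1, design 074036, per the file headers. The deposited intensity values are the background-subtracted, spatially detrended processed signal of each spot and its median and local background signals; the deposited files also hold flags of other kinds for spots above background, saturated or outlying. They were not normalized between arrays, per the file headers. What else the authors did is not given here.

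Of 62976 spots, 4259 were controls. Outlier spots were left out, spots of a probe averaged, and log2 of the processed signal taken minus the array's 75th percentile. Probes well above background on both arrays of the smoke or EV group were kept (29494 of 45598). No spot was saturated. RefSeq accessions named 21215 probes (16667 symbols, GRCr8 gene table); of several kept probes the brightest stood for a gene, and 115 genes had probes called in opposite directions. limma 3.58.1 in R 4.3.3 fitted 4 group means over all 8 arrays (4 residual degrees of freedom), with Benjamini-Hochberg adjustment at 0.05, 2-sided. A fold against a group not well above background is a bound: the mean of the group with signal over a floor, which on each array is the dim probe itself or the dimmest probe called well above background, whichever is brighter. The R package data.table (version 1.17.8), Python 3.11.15 and matplotlib 3.10.9 were also used. The fit was tested in 10 simulations with the spread of these data, in which a small part of the 26152 features was raised on the EV arrays. It recovered 0.705%, 35.3% and 85.7% of log2 differences of 1, 2 and 3, and 4.14% of its calls were false. The simulations used independent normal noise and held no difference in brightness or scaling between arrays. Under such noise the adjustment is built to hold the false share near or under its threshold of 0.05. Far more features were called in the data, where brightness differed, so these shares need not hold there.

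The E1A scale subtracts the mean of 7 E1A control probes of 10, those with a mean log2 signal over 6. Other alternatives were quantile and cyclic loess normalization, normexp (offset 50, on the median spot signal), other filters on dim probes, the mean of a gene's probes, the arrays of the compared groups only, a trended and robust prior, weights for arrays, a block for the replicate number, and leaving out each array in turn (the array left alone in its group then takes the spread of the others).

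The members and the 39 gene lists (681 genes, 590 measured) were chosen with earlier results of these data known, so list counts are a description with no test. Named genes are the 10 highest and 10 lowest differences among features with a symbol called in 1 direction on both scales, seen on all 4 arrays, with groups that do not overlap and probes of 1 sign; the 4 largest bounds each way; up to 3 called members of each main list and 1 of each other list by p; and 20 genes named whatever their values. The other called members, Nfkbia, Sftpa1, Sftpb, Myh6, Myl7, Tnnt2 and the members given as ranges were named after their values were seen. Results of some genes are not reported here, though the list counts include them.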

Additional observations from a re-analysis of the deposited data

Results flagged for a closer look

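The effects of vesicles and of cells, each against the same 2 smoke arrays, differed in 15 named genes by the limma test of EV against MSC (adjusted p under 0.05), in which 5.07% of all features passed. Genes with a higher level after vesicles than after cells were Cxcl1 2.1, Il33 1.55 and Lcn2 2.09 (log2, EV minus MSC). On no MSC array were 4 further genes well above background. C4h12orf71 was at least 23.1-fold higher after vesicles, Siah3 at least 53.4-fold, Sgk1 at least 3.31-fold and Stam at least 1.2-fold. With normexp their differences lay at 1.30, 1.91, -0.24 and -0.75 (log2), so these bounds depend on the background correction. Genes with a lower level after vesicles were Ephb2 -2.64, H2ap -2.15, Hs3st3b1 -2.28, Ly49s5 -2.38, Tbx21 -1.66, Thy1 -1.70, Vangl1 -2.24 and Zfp507 -2.23. The count of calls in this test fell to 0 without naive array 1 or 2, smoke array 1 or 2 or EV array 2, with array weights, with no filter on dim probes and in the fit of the 2 groups alone. Siah3 and C4h12orf71 were seen on the EV arrays only. On the percentile scale smoke stands higher than both treatments in Cxcl1, Il33, Lcn2, Sgk1 and Stam. There it stands lower than both in Ephb2, H2ap, Hs3st3b1, Ly49s5, Tbx21, Thy1, Vangl1 and Zfp507. On the E1A scale Tbx21 and Thy1 were lower on the EV arrays than on the smoke arrays.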

How the results depend on the processing

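Depth on arrays is signal over background, and 2 arrays a group limit the precision. The scaling decided the direction of most increases. Of the features called in EV against smoke, 74.1% were higher on the percentile scale, 1.04% on the E1A scale, 54.3% after quantile normalization, 49.0% after cyclic loess and 89.0% with normexp background correction. The count of calls was 19374 on the E1A scale and 17843 with normexp, and lay between 6952 and 14192 under the other 8 alternatives that kept all arrays; leaving out 1 array gave 1815 to 11716. For EV against naive it was 4 on the E1A scale, 2 after quantile normalization, 3 with the replicate number as a block, 0 to 41 with 1 array left out and 0 otherwise. For EV against MSC it was 10491 on the E1A scale, 13141 with normexp, 2352 with probes seen on all 4 smoke and EV arrays, 2314 with a trended and robust prior, 3 with the replicate block, 0 each with no filter on dim probes, with the arrays of the 2 groups only and with array weights, and 0 to 168 with 1 array left out. The causes were not tested.

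The replicate numbers of the groups share only a number: the labels name no shared animal, day or batch, and the deviations of smoke array 1 and EV array 1 from their group means correlated at 0.13 across features. With the replicate block, EV against smoke gave 9438 calls and 13 of the named genes' calls were lost.

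On the E1A scale 62 named genes changed sign. Their differences there were Prkca -1.43, Cx3cr1 -0.34, Tbx21 -0.48, Padi4 -0.68, Cd247 -0.71, Pax5 -0.99, Sftpc -0.61, Sftpd -1.08, Krt5 -0.73, Rsph1 -0.79, Myh11 -0.97, Mmp14 -1.15, F2r -1.05, Apaf1 -0.53, Mcm4 -1.27 and Hsp90ab1 -0.35. Next came Rplp1 -0.94, Matn1 -0.56, Calb2 -0.80, Prkcz -2.21, Il1b -1.81, Mmp9 -2.46, Hmox1 -1.77, Cyp1a1 -2.06, Scgb1a1 -1.87, Ager -1.81, Vegfa -1.02, Hgf -2.05, Nfkbia -1.96, Thy1 -0.80, Ugt1a6 -1.21 and Foxj1 -0.17. Then followed Sftpb -1.53, Cd3e -0.61, Bst2 -0.98, Cd163 -1.06, Col1a1 -1.04, Ctsb -1.51, Egfr -1.36, Fgf1 -1.26, Flot2 -1.19, Gpx2 -0.95, Gpx4 -1.33, Gsr -1.29, Il18r1 -1.06, Il6st -1.25, Inhba -0.92 and Lif -1.45. The last were Lyz2 -0.60, Mertk -1.13, Mx2 -0.80, Oas2 -1.24, Pecam1 -0.66, Rab31 -1.03, Serpine2 -0.95, Smad9 -0.79, Srxn1 -1.32, Stat2 -1.38, Tnc -1.0, Tnfrsf1a -1.25, Tnfrsf1b -1.44 and Tsg101 -1.18. With normexp the sign changed to Fcer1a 1.19, Tnf 0.12, Ccl2 0.48, Mmp12 1.42, Cnn1 0.23, Ctsw 0.85, Cxcl10 0.065, Klrk1 0.48, Lum 0.91 and Sox17 1.41. After quantile normalization it changed to Sftpd -0.028, Mmp9 -0.76, Cyp1a1 -0.033, Scgb1a1 -0.55, Ager -0.86 and Sftpb -0.54, and after cyclic loess to Prkcz -0.072, Mmp9 -0.94, Cyp1a1 -0.37, Scgb1a1 -0.34, Ager -0.33, Hgf -0.026, Nfkbia -0.10 and Sftpb -0.070. When kept probes of a gene were averaged it changed to Prkcz -0.73, Gpx4 -0.31 and Igf1 0.61. With 1 array left out the sign changed in 4 named genes that were not called, whose differences ranged as follows: Mmp9 -0.58 to 0.60, Mmp12 -1.55 to 0.16, Cyp1a1 -1.90 to 2.72 and Hgf -0.017 to 0.85; the arrays were smoke array 2 (Mmp9), EV array 1 (Mmp9, Mmp12) and EV array 2 (Cyp1a1, Hgf). Calls of named genes lost with no change of sign numbered 124 without smoke array 1, 117 without EV array 2, 70 without EV array 1 and 48 without smoke array 2, and 64 with no filter on dim probes, 38 after quantile normalization and 36 after cyclic loess; the other alternatives lost 0 to 15 each.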

Other observations

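Odorant, vomeronasal and taste receptor genes, taken by their symbols, were counted together after their values were seen. Of 189 measured, 97 were higher after vesicles and 0 lower on the percentile scale, where 28.6% of all features were higher. On the E1A scale 6 were higher and 97 lower, where 73.3% of all features were lower. The levels of these genes are not given here, and the part of array brightness in the counts was not tested.

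The share of features called differed with the level in naive lung. In 5 groups of features from the lowest to the highest naive level, 13.8%, 11%, 12.5%, 9.37% and 3.21% were lower after vesicles, and 18.0%, 33.1%, 33.7%, 28.0% and 30.1% were higher.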
